A study of Homo sapiens with 60 samples.

Results

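The glucose-sensing transcription factors ChREBP and MondoA, their partner MLX and 4 genes tied to them were followed in HepG2 cells, a human hepatocellular carcinoma line, after 24 h with water extracts of herbal medicines. The 7 genes were taken by symbol from a table of 60675 genes: the transcription factors MLXIPL (ChREBP), MLXIP (MondoA) and MLX, the alpha-arrestins TXNIP, ARRDC4 and ARRDC3, and the liver pyruvate kinase gene PKLR. They were chosen by their levels and differences in these same libraries, which are therefore given below as a description that no test supports. All 7 passed the filter on low counts that left 16167 genes. The cells received 500, 100 or 20 µg/mL of Astragali Radix, Cinnamomi Cortex, Cnidii Rhizoma or Rehmanniae Radix Preparata, which are single herbs, or of Palmul-tang, Sagunja-tang or Samul-tang, which are formulas of several herbs. All groups were the same line in the same medium, DMEM with serum, whose glucose content is not given in the sources used here. The control received only solvent, which is dimethyl sulfoxide at 0.1% per the sample labels but at 2% per the series description. Vehicle and each dose of 6 extracts had 3 libraries, and Palmul-tang had 1 library per dose, which gave 57 replicated libraries in 19 groups out of 60.

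ChREBP and MondoA are basic helix-loop-helix leucine zipper proteins that pair with MLX and bind carbohydrate response elements in DNA. Phosphorylated sugars formed after glucose enters the cell raise their activity, and in liver ChREBP is best known for driving genes of glycolysis and fat synthesis, PKLR among them. TXNIP, which binds thioredoxin and lowers glucose uptake by removing glucose transporters from the cell surface, and its relative ARRDC4 are among the genes that respond most directly to MondoA and ChREBP. ARRDC3 is a further alpha-arrestin, known as an adaptor between receptors and ubiquitin ligases. Since the activity of these factors depends on sugar phosphates and on their place in the cell, their messenger RNA is not a measure of it.

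The carbohydrate response element is a pair of E-box-like half-sites 5 bases apart. Matches to it are shown here for the members with one in the window searched. Beside them is the ARRDC4 promoter, which has a single canonical E-box. Sequences are RefSeq's on GRCh38.p14, the 250 bases before a transcription start, written 5′ to 3′ on the gene's strand. Capitals mark the match to CACGNG or CNCGTG, 5 bases, then CACGNG or CNCGTG in TXNIP and PKLR, and to CACGTG in ARRDC4. Both strands were searched, and a CACGTG also matches either half-site.
TXNIP promoter, chr1:145996580-145996829, minus strand: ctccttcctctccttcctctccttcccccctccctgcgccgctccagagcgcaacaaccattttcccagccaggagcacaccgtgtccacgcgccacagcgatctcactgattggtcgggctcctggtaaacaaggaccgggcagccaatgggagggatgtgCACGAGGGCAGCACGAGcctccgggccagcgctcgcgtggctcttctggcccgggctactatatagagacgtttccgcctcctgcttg
PKLR promoter of the second start, chr1:155300953-155301202, minus strand: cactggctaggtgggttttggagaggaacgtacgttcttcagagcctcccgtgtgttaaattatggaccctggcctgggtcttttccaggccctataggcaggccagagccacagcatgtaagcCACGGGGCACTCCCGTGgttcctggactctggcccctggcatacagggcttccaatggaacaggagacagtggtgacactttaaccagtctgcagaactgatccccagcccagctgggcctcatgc
ARRDC4 promoter, chr15:97960453-97960702, plus strand: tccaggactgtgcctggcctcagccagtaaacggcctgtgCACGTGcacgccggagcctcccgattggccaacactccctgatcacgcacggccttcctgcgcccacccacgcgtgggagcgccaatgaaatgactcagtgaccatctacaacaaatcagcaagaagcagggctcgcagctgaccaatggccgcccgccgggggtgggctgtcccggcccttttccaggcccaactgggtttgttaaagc
The TXNIP match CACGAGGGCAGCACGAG lies 88 to 72 bases before the start, and the PKLR match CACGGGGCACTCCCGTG lies 126 to 110 bases before its start. Of 35116 promoter windows of 300 bases, 27 (0.0769%) held such a pair, and the 2 members account for 2 of them. In a list of 24 known ChREBP and MondoA targets, used further below, 16 had a window. Of these, 0 held the pair and 1 held CACGTG, so a window without a match does not show that a gene lacks the element. CACGTG was found in 2548 windows (7.26%), among them ARRDC4 (210 bases before the start), MLX (50 bases before) and the other PKLR start (197 bases before). The windows of ARRDC3, MLXIPL and MLXIP held neither motif. A match is a description of the letters, and no binding was measured here.

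On GRCh38, TXNIP (ENSG00000265972) lies on chromosome 1 from 145992435 to 145996600, ARRDC4 (ENSG00000140450) on chromosome 15 from 97960698 to 97973838, and ARRDC3 (ENSG00000113369) on chromosome 5 from 91368724 to 91383359. MLXIPL (ENSG00000009950) lies on chromosome 7 from 73593194 to 73624543, MLXIP (ENSG00000175727) on chromosome 12 from 122078722 to 122147347, MLX (ENSG00000108788) on chromosome 17 from 42567068 to 42573239 and PKLR (ENSG00000143627) on chromosome 1 from 155289293 to 155301438. All are protein-coding. Genes on the opposite strand overlap 3 of them: HCN3 overlaps PKLR at 4.66 to 13.1 CPM, PSMC3IP overlaps MLX at 8.0 to 20.2 CPM, and ARRDC3-AS1 overlaps ARRDC3 at 0.0919 to 0.761 CPM. ENSG00000274080 overlaps MLXIPL on the same strand at 1.49 to 7.64 CPM. The strand setting of the counting is not given in the sources used here, so reads shared with these genes cannot be told apart.

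Levels are TMM-scaled counts per 1000000 reads (CPM), TMM being a library scaling that takes most genes as unchanged, and differences are log2 differences with their standard errors (SE) from an edgeR model of all 57 replicated libraries. Total counts ran from 16.5 to 34.4 M (M, 1000000 reads) per library, with a median of 25.5 M. Sample codes begin with a number, called the set, that was shared by Cnidii Rhizoma and Rehmanniae Radix Preparata, by Cinnamomi Cortex and Astragali Radix, and by Sagunja-tang and Samul-tang. Vehicle has a code of its own, and any difference between sets is therefore part of every comparison with it, whereas the doses of an extract are compared within a set. The labels do not say whether the 3 libraries of a group were separate cultures, and the spread between them may be technical. The 9 liver markers checked were all expressed, summing to 47962.3 to 60994.7 CPM, while 6 of 11 markers of other cell types passed the filter and KRT5 was at 0 in every library. Relative to the deposited totals, TMM raised the values of Cinnamomi Cortex at 500 µg/mL: with total counts alone the median of all genes against vehicle moved from -0.02 to -0.30. In the set of Cinnamomi Cortex and Astragali Radix, the replicate 1 libraries held less PFKFB3 than the others in 5 of 6 groups (2.14 to 3.91 CPM beside 5.15 to 9.05), but not in Cinnamomi Cortex at 500 µg/mL (27.8 beside 29.9 and 29.3 CPM). Values without all 6 are given where they differ.

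TXNIP was below the vehicle range in 16 of 18 replicated extract groups and above it in the other 2, Cinnamomi Cortex at 500 and 100 µg/mL. Vehicle libraries held 57.2, 58.3 and 58.1 CPM (57.9 ± 0.606, SD, n = 3). With Rehmanniae Radix Preparata at 500 µg/mL, TXNIP stood at 44.0, 44.7 and 46.6 CPM (45.1 ± 1.33, SD, n = 3), the lowest mean of the 19 groups and 22.0% under vehicle. Its log2 difference from vehicle was -0.36 ± 0.0427 (SE), and no library of one group reached the other. The values with Cnidii Rhizoma at 500 µg/mL were 48.4, 47.5 and 49.0 CPM, a log2 difference of -0.26 ± 0.0429. Those with Sagunja-tang were 47.7, 48.8 and 49.8 CPM and those with Samul-tang 49.7, 48.1 and 48.0 CPM, each -0.25 from vehicle on the log2 scale (SE 0.0423 and 0.0427). The 2 formulas had nearly the same TXNIP level, with a log2 difference of 0.00 between them. Astragali Radix was nearest to vehicle, at 55.5, 50.7 and 55.9 CPM, with a log2 difference of -0.10 ± 0.0427. Its group means and that of Cinnamomi Cortex at 20 µg/mL, of the same set, were 52.1 to 54.0 CPM. Every extract group of the other sets was lower, at 50.3 CPM or less, so extract and set cannot be told apart here.

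TXNIP was under the vehicle range at every dose of the 5 replicated extracts other than Cinnamomi Cortex and varied little between doses. Group means at 500, 100 and 20 µg/mL were 48.3, 49.3 and 49.8 CPM with Cnidii Rhizoma and 54.0, 52.3 and 53.8 CPM with Astragali Radix. With Sagunja-tang they were 48.8, 50.3 and 48.5 CPM, and with Samul-tang 48.6, 50.2 and 48.0 CPM. The dose trend, the mean log2 change per 5-fold step from 20 to 500 µg/mL, lay between -0.02 and 0.01 in these 4 extracts. The 100 µg/mL libraries carry no weight in it. Rehmanniae Radix Preparata had means of 45.1, 46.9 and 48.8 CPM and a trend of -0.06 ± 0.0219. Vehicle stood above these extracts at all doses, and the values depend on the comparator. Set against all 6 groups given 20 µg/mL instead, TXNIP at 500 µg/mL differed by -0.15 with Rehmanniae Radix Preparata, -0.06 with Cnidii Rhizoma, -0.04 with each formula and 0.11 with Astragali Radix. At 20 µg/mL the TXNIP means were 52.1 and 53.8 CPM with Cinnamomi Cortex and Astragali Radix and 48.0 to 49.8 CPM in the other sets. Those 6 groups also received extracts and come from different sets. An offset of the vehicle libraries, a difference between sets and an effect already present at 20 µg/mL therefore cannot be told apart. Palmul-tang, with 1 library per dose and no replicate check, had TXNIP at 50.2, 47.7 and 48.6 CPM at 500, 100 and 20 µg/mL.

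Cinnamomi Cortex was the only extract of the 6 in which TXNIP was higher at each higher dose. The 20 µg/mL libraries held 52.0, 53.9 and 50.6 CPM (52.1 ± 1.68, SD, n = 3), under vehicle by 0.15 ± 0.0421 on the log2 scale. The 100 µg/mL libraries held 66.4, 65.2 and 64.6 CPM (65.4 ± 0.927), 0.18 ± 0.042 above vehicle. The 500 µg/mL libraries held 68.2, 73.6 and 72.4 CPM (71.4 ± 2.81), 0.30 ± 0.042 above vehicle. No library of any of these 3 doses overlapped another dose or vehicle, and the dose trend was 0.23 ± 0.0211 per step. The level at 500 µg/mL exceeded that with Astragali Radix, of the same set, by 0.40 ± 0.0428, or 0.45 without the replicate 1 libraries of the set. Part of this rests on the scaling. With total counts alone the 500 µg/mL libraries stood at 57.1, 61.3 and 62.4 CPM against 58.8, 60.6 and 58.5 CPM in vehicle, so that they overlapped, with a log2 difference of 0.02, while at 100 µg/mL 64.4, 62.5 and 63.4 CPM stayed above vehicle and the dose trend was 0.09. In the order of the group means, Cinnamomi Cortex at 500 µg/mL, at 100 µg/mL and vehicle each stood clear of the next group, and the 15 steps below vehicle were between groups that overlapped.

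ARRDC4, the arrestin most like TXNIP in its known regulation, was below the vehicle range in 13 of 18 groups, overlapped it in 5 and was above it in none. It is a sparse gene here, with 58 to 173 reads per library and a median of 114, for which counting alone gives an error of 9.35%. Vehicle libraries held 5.32, 5.43 and 5.98 CPM (5.58 ± 0.353, SD, n = 3). Cnidii Rhizoma at 500 µg/mL held 4.13, 3.97 and 3.08 CPM (3.72 ± 0.567), a log2 difference of -0.57 ± 0.131. Rehmanniae Radix Preparata at that dose held 3.86, 3.66 and 3.96 CPM (3.83 ± 0.154), a difference of -0.54 ± 0.128, and its lowest mean was at 100 µg/mL, 3.52 ± 0.313 CPM. All libraries of this pair at 500 µg/mL lay under the lowest of vehicle. Both extracts are of the same set, so extract and set cannot be told apart here. Samul-tang at 500 µg/mL held 4.3, 3.84 and 4.19 CPM (-0.43 ± 0.128) and Sagunja-tang 4.0, 4.27 and 4.57 CPM (-0.38 ± 0.125). At 100 µg/mL both formulas overlapped vehicle, with means of 5.08 ± 0.326 and 5.11 ± 0.611 CPM, so that the middle dose was the highest of the 3 in each. Astragali Radix at 500 µg/mL held 5.47, 4.26 and 4.85 CPM, which overlapped vehicle (-0.21 ± 0.127).

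With Cinnamomi Cortex, ARRDC4 did not stand above vehicle as TXNIP did. The 500 µg/mL libraries held 6.46, 5.65 and 4.76 CPM (5.62 ± 0.847, SD, n = 3), on both sides of the vehicle values, with a log2 difference of 0.02 ± 0.125. The 100 µg/mL libraries held 7.27, 4.49 and 5.38 CPM, and the log2 difference of 0.03 became -0.18 without replicate 1. The 20 µg/mL libraries held 4.8, 4.3 and 4.41 CPM (4.5 ± 0.261), all under vehicle (-0.31 ± 0.124). The dose trend was 0.16 ± 0.0639 per step, and with total counts alone it was 0.03 ± 0.0656. With total counts alone the difference at 500 µg/mL was -0.26. Over the 19 groups all 18 neighbouring steps in the order of ARRDC4 overlapped, and Palmul-tang held 4.32, 4.58 and 4.53 CPM at 500, 100 and 20 µg/mL.

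ARRDC3 overlapped vehicle in 11 of 18 groups, was below it in 6 and above it in 1, Cinnamomi Cortex at 500 µg/mL. Vehicle held 15.0, 13.5 and 14.6 CPM (14.4 ± 0.75, SD, n = 3) and Cinnamomi Cortex at 500 µg/mL 19.6, 20.1 and 19.4 CPM (19.7 ± 0.358), a log2 difference of 0.46 ± 0.0848. With total counts alone the difference was 0.18, and its libraries at 16.4 to 16.8 CPM were still above those of vehicle at 14.1 to 15.4 CPM. At 100 and 20 µg/mL of that extract ARRDC3 overlapped vehicle, at 14.3 ± 0.262 and 13.6 ± 0.525 CPM, and its dose trend was 0.27 ± 0.0426 (0.14 with total counts alone). Rehmanniae Radix Preparata at 500 µg/mL held 11.8, 12.1 and 11.4 CPM, the lowest mean of the 19 groups (-0.28 ± 0.0878). Without Samul-tang 500 µg/mL replicate 3 (11.3 CPM) the log2 difference of that group went from -0.07 to 0.05.

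**Figure D1:**
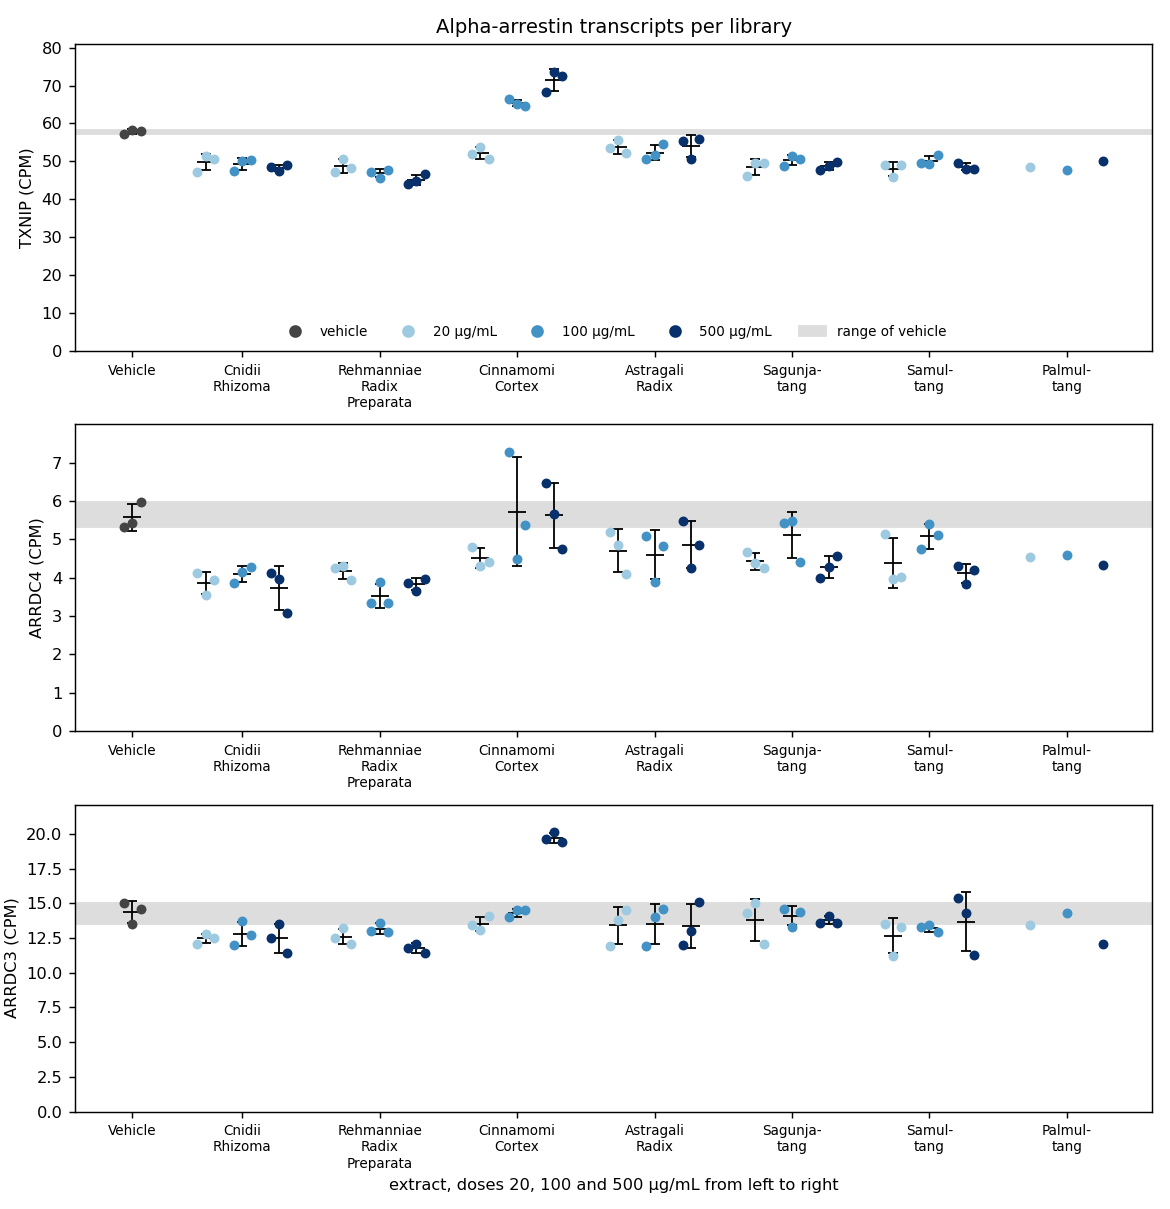
TMM-scaled CPM of TXNIP, ARRDC4 and ARRDC3 in each library, by group; points are libraries, lines and bars the mean and SD of 3 libraries, and the grey band the range of the vehicle libraries. TXNIP lies under the band in 16 of 18 replicated groups and over it with Cinnamomi Cortex at 500 and 100 µg/mL, while ARRDC4 with Cinnamomi Cortex at 500 µg/mL spans the band.

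MLXIPL, which encodes ChREBP and has the highest level per length of the 7 genes in vehicle (39.5 CPM per kb of exon, against 16.1 for MLX, 16 for TXNIP, 5.74 for PKLR, 3.65 for MLXIP, 2.92 for ARRDC3 and 1.37 for ARRDC4), was far lower with the upper doses of Cinnamomi Cortex. Vehicle libraries held 180.9, 192.5 and 197.8 CPM (190.4 ± 8.64, SD, n = 3). Cinnamomi Cortex at 500 µg/mL held 53.1, 50.9 and 46.6 CPM (50.2 ± 3.29), 73.6% under vehicle, with a log2 difference of -1.92 ± 0.0742. At 100 µg/mL it held 139.3, 149.8 and 137.0 CPM (142.1 ± 6.8, log2 difference -0.42 ± 0.0692). At 20 µg/mL it held 201.1, 198.1 and 200.5 CPM, just over the highest vehicle library (0.07 ± 0.0684). The libraries of the 3 doses did not overlap each other, and the dose trend was -1.0 ± 0.0371 per step. The fall from 100 to 500 µg/mL was larger than that from 20 to 100 µg/mL. The difference at 500 µg/mL was -2.20 with total counts alone, and leaving out single libraries gave -1.96 to -1.87. So at 500 µg/mL the gene of ChREBP and TXNIP stood on opposite sides of vehicle in the same 3 libraries, by TMM-scaled values.

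Outside Cinnamomi Cortex, MLXIPL overlapped vehicle in 14 of 15 groups. The exception was Samul-tang at 20 µg/mL with 215.1, 274.9 and 210.3 CPM (233.4 ± 36.0, SD, n = 3), all above vehicle. Its log2 difference of 0.29 ± 0.0683 was 0.16 without replicate 2, and the dose trend of Samul-tang, -0.16 ± 0.0343 per step, was -0.10 at the least with 1 library left out. The same replicate 2 was also the highest of its group for MLXIP, at 67.5 CPM beside 54.7 and 56.0, and for PKLR, at 22.9 CPM beside 17.8 and 17.6. Without it, MLXIP differed from vehicle by 0.12 in place of 0.23 and PKLR by -0.04 in place of 0.10. Cnidii Rhizoma at 500 µg/mL had 1 such library too: replicate 1 held 218.9 CPM of MLXIPL and 22.3 CPM of PKLR, beside 169.6 and 182.8 CPM and 17.5 and 17.3 CPM. Without it the log2 difference of MLXIPL was -0.11 and that of PKLR -0.06. With total counts alone the group ran from 172.0 to 200.3 CPM of MLXIPL, against 186.0 to 199.8 in vehicle. For PKLR it then ran from 17.1 to 20.4 CPM, against 17.6 to 19.2 in vehicle, so this spread depends in part on the scaling. Sagunja-tang had means of 177.7, 191.6 and 198.9 CPM of MLXIPL at 500, 100 and 20 µg/mL (trend -0.08 ± 0.0343), and Palmul-tang single values of 178.8, 190.7 and 198.6 CPM.

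MLXIP and MLX, the genes of MondoA and of the shared partner, varied less. Vehicle held 48.9, 49.9 and 53.4 CPM of MLXIP (50.7 ± 2.33, SD, n = 3), and Cinnamomi Cortex at 500 µg/mL 64.3, 62.1 and 65.2 CPM (63.9 ± 1.57), a log2 difference of 0.33 ± 0.0605 that was 0.05 with total counts alone. Its dose trend of 0.13 ± 0.0302 and its excess of 0.23 over Astragali Radix at 500 µg/mL turned to -0.002 and -0.03 with total counts alone. MLX held 66.9, 72.9 and 65.7 CPM in vehicle (68.5 ± 3.88) and 89.5, 93.1 and 88.3 CPM with Cinnamomi Cortex at 500 µg/mL (90.3 ± 2.49). That log2 difference of 0.40 ± 0.0517 was 0.12 with total counts alone, where the groups overlapped. In the other groups the means of MLX ran from 66.6 to 75.2 CPM and those of MLXIP from 50.7 to 59.4 CPM, and MLX overlapped vehicle in 16 of 18 groups and MLXIP in 14. The size of both differences thus depends on the scaling. For MLXIPL at 500 µg/mL total counts alone kept the direction and gave a larger size (-2.20 in place of -1.92).

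PKLR, the liver and red cell pyruvate kinase gene that carries the half-site pair shown above, was lower with 1 group only. Vehicle held 17.1, 18.4 and 19 CPM (18.2 ± 0.972, SD, n = 3) and Cinnamomi Cortex at 500 µg/mL 15.9, 13.4 and 11.4 CPM (13.6 ± 2.26), all under vehicle. The log2 difference was -0.42 ± 0.0984, with -0.55 when replicate 1 was left out and -0.70 with total counts alone. At 100 and 20 µg/mL PKLR overlapped vehicle, at 19.2 ± 1.71 and 18.3 ± 0.698 CPM, and the dose trend was -0.22 ± 0.0491 per step. Of the 18 groups, 16 overlapped vehicle and 1 lay just above it, Cnidii Rhizoma at 100 µg/mL with 20.2, 19.5 and 19.1 CPM. Compared with Astragali Radix at 500 µg/mL (16.1, 19.9 and 18.6 CPM) the difference was -0.43, or -0.63 without the replicate 1 libraries of the set. The 2 members with the half-site pair, TXNIP and PKLR, lay on opposite sides of vehicle at the highest dose of this extract by TMM-scaled values, whereas with total counts alone TXNIP overlapped vehicle.

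**Figure D2:**
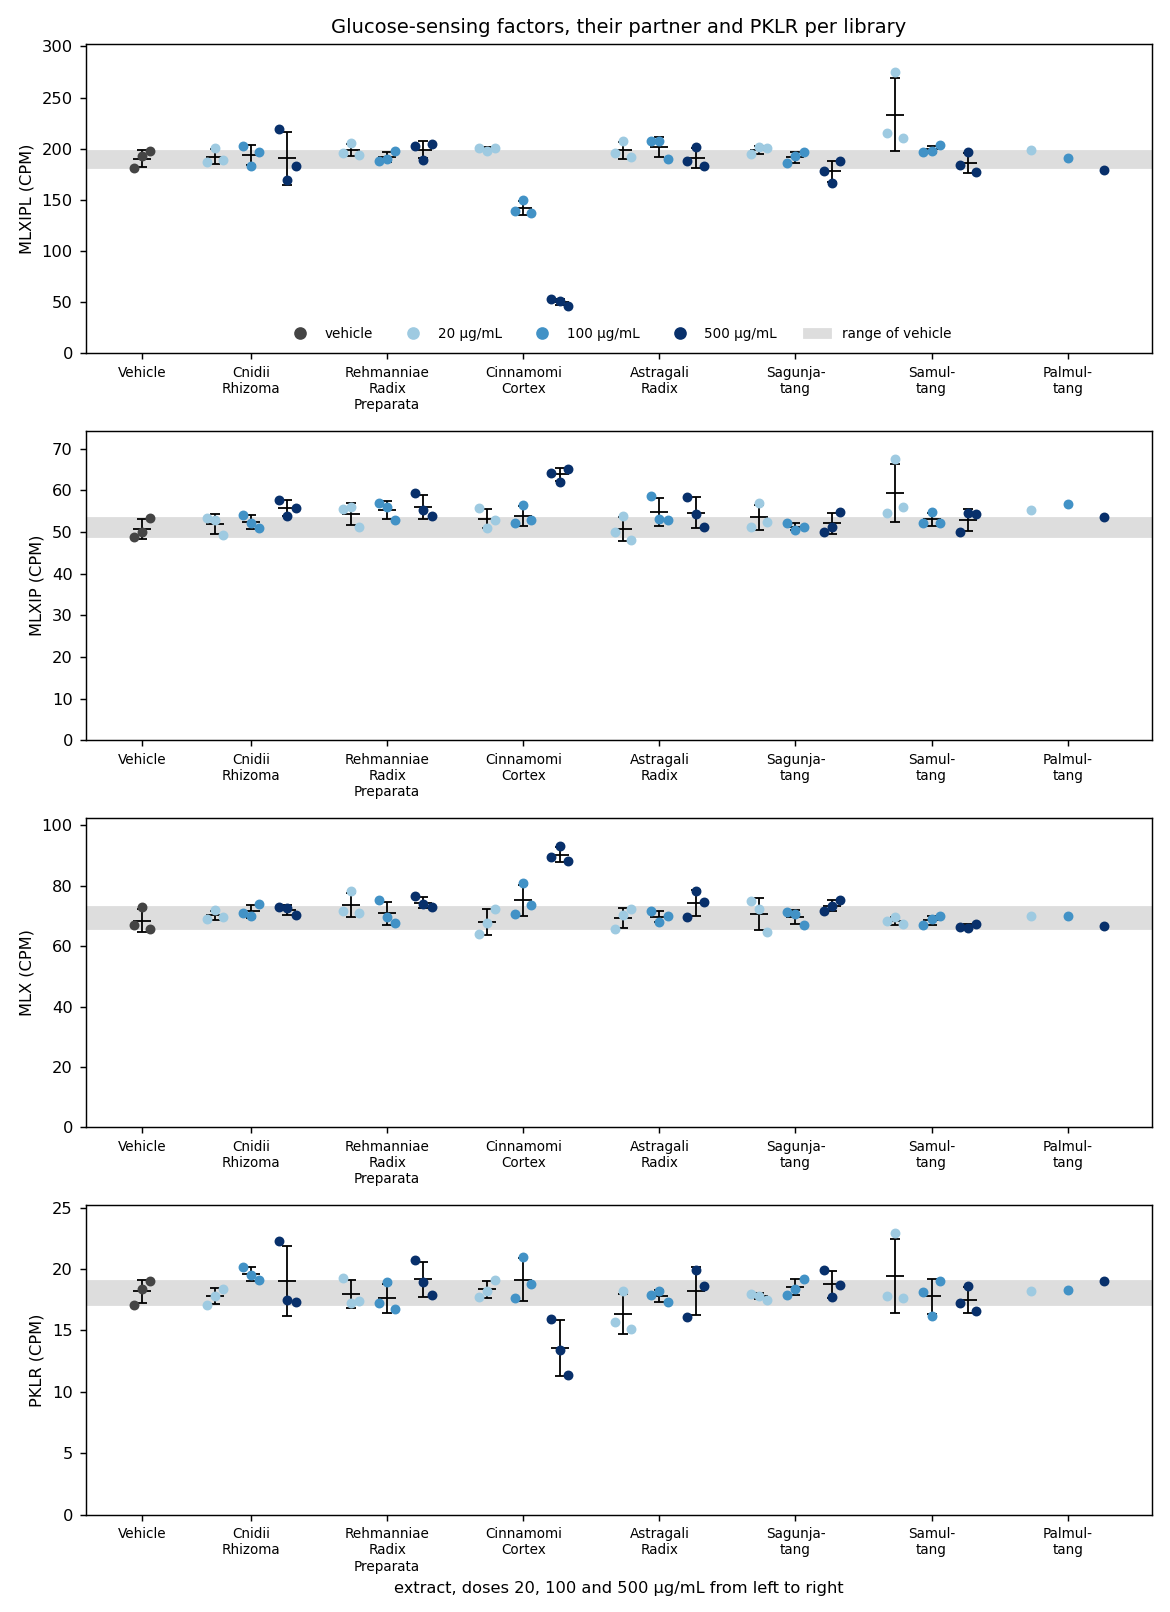
TMM-scaled CPM of MLXIPL, MLXIP, MLX and PKLR in each library, by group; points are libraries, lines and bars the mean and SD of 3 libraries, and the grey band the vehicle range. MLXIPL goes from 199.9 CPM at 20 µg/mL to 50.2 CPM at 500 µg/mL of Cinnamomi Cortex and one Samul-tang library at 20 µg/mL stands at 274.9 CPM.

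Set against all genes, the members' counts are as follows, with a call meaning an adjusted p under 0.05 in edgeR's quasi-likelihood test, which for these 7 genes only restates the values that chose them and supports nothing. At 500 µg/mL against vehicle, Cinnamomi Cortex had 4 members called higher (TXNIP, ARRDC3, MLX and MLXIP) beside 31.1% of all genes, and 2 lower (MLXIPL and PKLR) beside 31.6%, with 62.7% of all genes called in either direction. The members called with total counts alone were 1 higher (MLX) and the same 2 lower. Rehmanniae Radix Preparata had 3 called lower, the 3 arrestins, beside 3.58% of all genes lower and 7.45% in either direction. TXNIP and ARRDC4 were called lower with Cnidii Rhizoma (5.67% of all genes lower, 11.8% in either direction), Sagunja-tang (5.51% and 12.3%) and Samul-tang (6.26% and 13.7%). Astragali Radix had 0 members called, beside 3.04% of all genes. In the dose trends, Cinnamomi Cortex had 5 members called up (30.5% of all genes) and 2 down (31.4%), with 61.9% in either direction, and with total counts alone 3 up (TXNIP, ARRDC3 and MLX) and 2 down. The trend of Samul-tang had 1 member down (MLXIPL), beside 5.4% of all genes down and 9.88% in either direction. The other trends had 0, beside 3.22% of genes with Cnidii Rhizoma, 0.674% with Rehmanniae Radix Preparata, 1.16% with Astragali Radix and 4.99% with Sagunja-tang. Cinnamomi Cortex at 100 µg/mL had 1 member higher (TXNIP, 10.1% of all genes) and 1 lower (MLXIPL, 9.36%), with 19.4% in either direction, but TXNIP was not called with total counts alone or with no filter on low counts. At 20 µg/mL it had 1 lower (TXNIP), beside 3.31% lower and 7.16% in either direction, a call lost with total counts alone, with no filter on low counts and in a fit of the compared groups alone. Samul-tang at 20 µg/mL had 2 higher (MLXIPL and MLXIP, 10.8% of all genes) and 2 lower (TXNIP and ARRDC4, 9.9%), with 20.7% in either direction. That share rests on the fit: 3353 genes were called, but 111 in a fit of the compared groups alone, where no member was, and without replicate 2 the members called were TXNIP alone. The Samul-tang trend, with 1597 genes called, had 68 in a fit of its own groups and 153 without replicate 2 at 20 µg/mL, with 0 members in each. Between the extracts of a set at 500 µg/mL, Cinnamomi Cortex exceeded Astragali Radix in 4 members (30.9% of all genes) and was under it in 2 (31.8%), with 62.7% in either direction, and in their dose trends in 3 (25.0%) and 2 (25.9%), with 50.9%. These were, with total counts alone, 2 and 2 at 500 µg/mL and 1 and 2 in the trends. The other 2 pairs had 0 members called, beside 0.705% and 0.885% of all genes at 500 µg/mL and 0.068% and 0.142% in the trends. Leaving out 1 library ended the call of ARRDC3 with Rehmanniae Radix Preparata in 5 of 6 fits, that of ARRDC4 with Sagunja-tang at 500 µg/mL in 5 of 6 and with Samul-tang at 500 µg/mL in 3 of 6 and at 20 µg/mL in 5 of 6, that of ARRDC4 in the Cinnamomi Cortex trend in 4 of 9, and that of TXNIP with Cinnamomi Cortex at 20 µg/mL in 3 of 6.

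**Figure D3:**
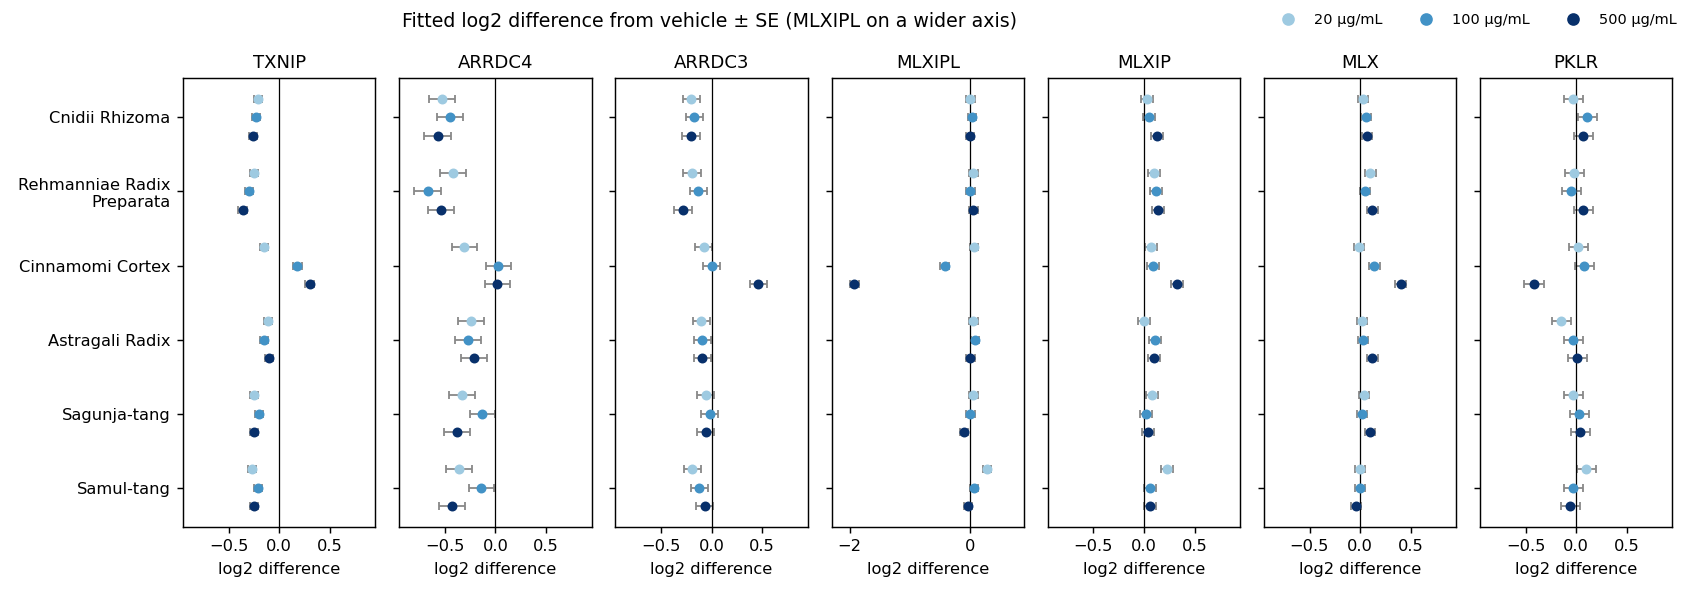
Log2 difference from vehicle of each of the 7 genes at 500, 100 and 20 µg/mL of 6 extracts, with bars of 1 SE, each panel a gene and MLXIPL on a wider axis. TXNIP and ARRDC4 lie under 0 at all doses of 5 extracts, while with Cinnamomi Cortex MLXIPL reaches -1.92 and TXNIP 0.30.

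Across the 19 group means of log2 CPM, TXNIP and ARRDC4 had a Pearson r of 0.80 (0.78 over the 16 groups without Cinnamomi Cortex), and TXNIP and ARRDC3 one of 0.84 (0.62 without). MLXIPL ran against TXNIP over all groups (-0.79), but not over the 16 (-0.13), and its r with PKLR likewise went from 0.80 to 0.16. Groups of a set share the first number of their sample codes and all groups share the scaling step, so these values are a description. Ranked by r over the 19 groups, TXNIP was the second most similar gene to ARRDC4 (0.801), after C6orf120 (0.807) and before RAB33B (0.798), FZD6 (0.794) and MOSMO (0.78). The genes most similar to TXNIP were CEBPG (0.921), HPS5 (0.911), PSAT1 (0.911), PPM1A (0.908) and OSTC (0.892). Over the 16 groups without Cinnamomi Cortex they were WDR33 (0.875), ANAPC5 (0.871), PTBP2 (0.864), PRDX3 (0.847) and PCGF6 (0.847), none of the first 5, and for ARRDC4 JADE3 (0.825), KITLG (0.825), RMI1 (0.815), ZNF317 (0.805) and VOPP1 (0.802).

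Genes around the members were read from 6 lists of 100 genes, of which 86 were tested. With Cinnamomi Cortex at 500 µg/mL against vehicle, 56 of 86 were called higher and 12 lower (39 and 22 with total counts alone), beside 62.7% of all genes. The median log2 difference of these genes was 0.38, against -0.02 over all genes tested. In the dose trend 56 rose and 14 fell (35 and 22 with total counts alone), beside 61.9% of all genes. At 500 µg/mL of the other extracts 30 of 86 were called with Cnidii Rhizoma (21 higher, 9 lower, or 14 and 14 with total counts alone), 19 with Rehmanniae Radix Preparata (15 and 4, or 12 and 7), 21 with Sagunja-tang (12 and 9, or 7 and 8), 19 with Samul-tang (13 and 6) and 6 with Astragali Radix (3 and 3). The shares of all genes called in these comparisons are those given above, and the counts of single lists below stand beside the same shares. With Cinnamomi Cortex at 500 µg/mL these were 31.1% higher and 31.6% lower. Markers of other cell types summed to 185.1 to 209.2 CPM with Cinnamomi Cortex at 500 µg/mL against 125.4 to 131.7 CPM in vehicle. Of the 11, CD68, a lysosomal protein gene used as a macrophage marker, was at 129.6 to 149.8 CPM there against 56.3 to 59.4 CPM in vehicle. ACTA2 was at 51.7 to 57 against 62.8 to 66.6 CPM and CD14 at 1.06 to 1.81 against 3.12 to 3.87 CPM. PECAM1, VWF and COL1A1 were at 0.0459 to 1.82 CPM in both groups, and PTPRC, COL3A1, DES, KRT7 and KRT5 at 0 to 0.0459 CPM. The share of mitochondrial counts was 19.4 to 22.3% in those libraries and 14.4 to 16.7% in vehicle. The part of CD68 and of the mitochondrial share in these results was not tested. In such bulk libraries fewer cells of a type and less RNA per cell cannot be told apart.

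Known targets of ChREBP and MondoA were called in both directions with Cinnamomi Cortex, as all genes were, and the ChREBP gene itself was lowest there. At 500 µg/mL 9 of 20 tested were called higher and 6 lower, beside 31.1% of all genes higher and 31.6% lower. BHLHE40, a repressor of the clock, rose by 2.51 ± 0.167 (log2, SE), G6PC1, the last enzyme of glucose release, by 1.42 ± 0.1, ACLY, which supplies acetyl-CoA for fat synthesis, by 0.74, and SCD, which desaturates fatty acids, by 0.61. ACACB, the acetyl-CoA carboxylase isoform that limits fatty acid oxidation, was lower by a log2 difference of -0.84 ± 0.0585. G6PC1 took the opposite course with the other 5 extracts and is the target whose dose trend was called in all 6. Its level was 21.7 ± 3.95 CPM in vehicle (19.3 to 26.3), and at 500, 100 and 20 µg/mL it was 13.9, 18.6 and 24.7 CPM with Cnidii Rhizoma and 14.4, 18.8 and 26.0 CPM with Astragali Radix. In Cinnamomi Cortex it was 58.1, 34.7 and 28.1 CPM. The trends per step were -0.41 ± 0.0552 (Cnidii Rhizoma, adjusted p = 1.5e-06), -0.29 ± 0.0554 (Rehmanniae Radix Preparata, 0.00143), -0.44 ± 0.0558 (Astragali Radix, 9.04e-07), -0.35 ± 0.0545 (Sagunja-tang, 2.67e-05) and -0.36 ± 0.0537 (Samul-tang, 1.24e-05). In each of these 5 extracts the 3 libraries at 500 µg/mL lay under the 3 at 20 µg/mL, and no left-out library ended the call. TXNIP in the same libraries had dose trends between -0.06 and 0.01.

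Further targets moved with some of the extracts. ANGPTL8, a feeding-induced secreted inhibitor of lipoprotein lipase, rose at 500 µg/mL with Cnidii Rhizoma (0.80 ± 0.155), Rehmanniae Radix Preparata (0.74 ± 0.154) and Cinnamomi Cortex (1.09 ± 0.153), and BHLHE40 with Rehmanniae Radix Preparata by 0.78 ± 0.167. Against the 6 groups at 20 µg/mL the ANGPTL8 call of Rehmanniae Radix Preparata was lost. GPD1, which makes glycerol phosphate for triglycerides, rose with dose in Cnidii Rhizoma (0.30 ± 0.0358 per step, adjusted p = 6.39e-08) and Sagunja-tang (0.23 ± 0.0361, 3.61e-05). All 3 libraries at 500 µg/mL, at 33.2 to 35.9 and 26.7 to 30.1 CPM, were above those at 20 µg/mL, at 21.3 to 23.8 and 20.2 to 21.6 CPM. Between Cnidii Rhizoma and Rehmanniae Radix Preparata at 500 µg/mL 3 of the 86 genes differed (1 higher, 2 lower, or 0 and 2 with total counts alone), all targets. ACLY (-0.23 ± 0.0312, adjusted p = 4.94e-06) and SCD (-0.30 ± 0.0429, 1.69e-05) were lower with Cnidii Rhizoma, and GPD1 (0.34 ± 0.0711, 0.00704) higher. The 7 members differed by -0.06 to 0.10 on the log2 scale in that pair. Between Sagunja-tang and Samul-tang 0 of 86 were called by edgeR, 14 had an unadjusted p under 0.05 and DESeq2 called 1.

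Genes of glucose uptake and phosphorylation changed in every extract at 500 µg/mL. With Cinnamomi Cortex 9 of 16 rose and 3 fell: SLC2A1, the transporter GLUT1 that TXNIP acts on, rose by 1.23 ± 0.0631, HK2 by 1.40 ± 0.0823 and HKDC1 by 0.95 ± 0.0641, both hexokinase genes, and HK1 by 2.87 ± 0.185. SLC2A2, the liver transporter GLUT2, changed by -1.14 ± 0.0642 and SLC2A4, the insulin-responsive GLUT4, by -1.02 ± 0.115. With the other 5 extracts, in which TXNIP was lower than in vehicle, SLC2A1 differed from vehicle by -0.17 to 0.09 and was called in none. HK2 was at 104.0 ± 4.33 CPM in vehicle and from 137.6 to 171.8 CPM in their means at 500 µg/mL, and was called higher in all 5, by 0.41 ± 0.0825 (Astragali Radix) to 0.72 ± 0.0821 (Cnidii Rhizoma). HKDC1 rose by 0.26 ± 0.0664 to 0.57 ± 0.0641 and SLC2A4 changed by -0.71 ± 0.108 to -0.38 ± 0.108, again in all 5. As with TXNIP, the choice of comparator matters here. Against the 6 groups at 20 µg/mL the SLC2A4 calls of Cnidii Rhizoma, Rehmanniae Radix Preparata and Samul-tang and the HK2 calls of Astragali Radix and Samul-tang were lost, and SLC2A4 with Astragali Radix was at 0.08. The Astragali Radix calls were also lost when single libraries were left out: SLC2A4 without any 1 of the vehicle libraries (-0.39 to -0.37) or Astragali Radix replicate 2 (-0.39) or 3 (-0.30), and HKDC1 without vehicle replicate 1 (0.24) or 3 (0.20) or Astragali Radix replicate 2 (0.27) or 3 (0.23). HKDC1 also rose with dose within Cnidii Rhizoma (0.20 ± 0.0325), Sagunja-tang (0.25 ± 0.0319) and Samul-tang (0.19 ± 0.0321).

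Glycolysis and pyruvate genes were the most uniform list with Cinnamomi Cortex at 500 µg/mL, with 20 of 23 called higher and 1 lower. ALDOC rose by 1.80, ALDOA by 1.46, PGK1 by 1.43 and ENO1 by 1.25, all steps of glycolysis, and PKM, the pyruvate kinase gene of most tissues, by 1.25 in the libraries where its liver counterpart PKLR was lower. PFKFB3, which makes an activator of glycolysis, rose by 3.51 ± 0.271. With Cnidii Rhizoma 10 of 23 rose and 1 fell and with Rehmanniae Radix Preparata 7 rose and 0 fell. PFKFB3 was higher than in vehicle with both, by 2.11 ± 0.292 and 1.96 ± 0.293, but its dose trends within the set were 0.06 and 0.03. Against the groups at 20 µg/mL it was higher by 0.89 and 0.74. Those groups come from different sets. In both comparisons an effect of the extract and a difference between sets cannot be told apart. With Samul-tang PFKFB3 rose by 1.12 ± 0.319, a call lost without its replicate 1 (1.03) and a difference of -0.10 against the groups at 20 µg/mL. With Astragali Radix 0 of 23 were called by edgeR at 500 µg/mL, 3 had an unadjusted p under 0.05 and DESeq2 called 1. PFKFB3 there was at 2.47 CPM in replicate 1 and at 5.15 and 5.52 CPM in the others, with 2.32 to 2.88 CPM in vehicle.

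In the network of MYC, MAX and MLX, to which the members MLX, MLXIP and MLXIPL belong, 6 of 10 genes rose and 1 fell with Cinnamomi Cortex at 500 µg/mL. MXD1, a repressor partner of MAX and MLX, rose by 0.78, MYC by 0.71 and MAX by 0.64, and MXD3 changed by -0.90 ± 0.107. MYC was also called higher with Cnidii Rhizoma (0.27 ± 0.0642), Rehmanniae Radix Preparata (0.26 ± 0.064) and Sagunja-tang (0.36 ± 0.0638), the call with Rehmanniae Radix Preparata being lost against the groups at 20 µg/mL. Of the other arrestins and the NEDD4-type ubiquitin ligases to which alpha-arrestins bind, 8 of 11 rose and 1 fell with Cinnamomi Cortex at 500 µg/mL. ARRDC2 rose by 1.15 ± 0.146, ARRB1 by 0.46, ITCH, the ligase that marks TXNIP for degradation, by 0.38 and NEDD4L by 0.24, of which ITCH was no longer called and NEDD4L stood at -0.04 with total counts alone. Of the thioredoxin system, whose reduced form TXNIP binds, 4 of 6 rose: TXN by 0.88, TXNRD1 by 0.80, and TXNL1 and TXN2 by 0.21 and 0.22, the last 2 at -0.07 and -0.06 with total counts alone. TXN and TXNRD1 also rose with dose in Sagunja-tang, by 0.16 ± 0.0291 and 0.20 ± 0.0308 per step, where TXNIP did not (0.00 ± 0.0214).

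**Figure D4:**
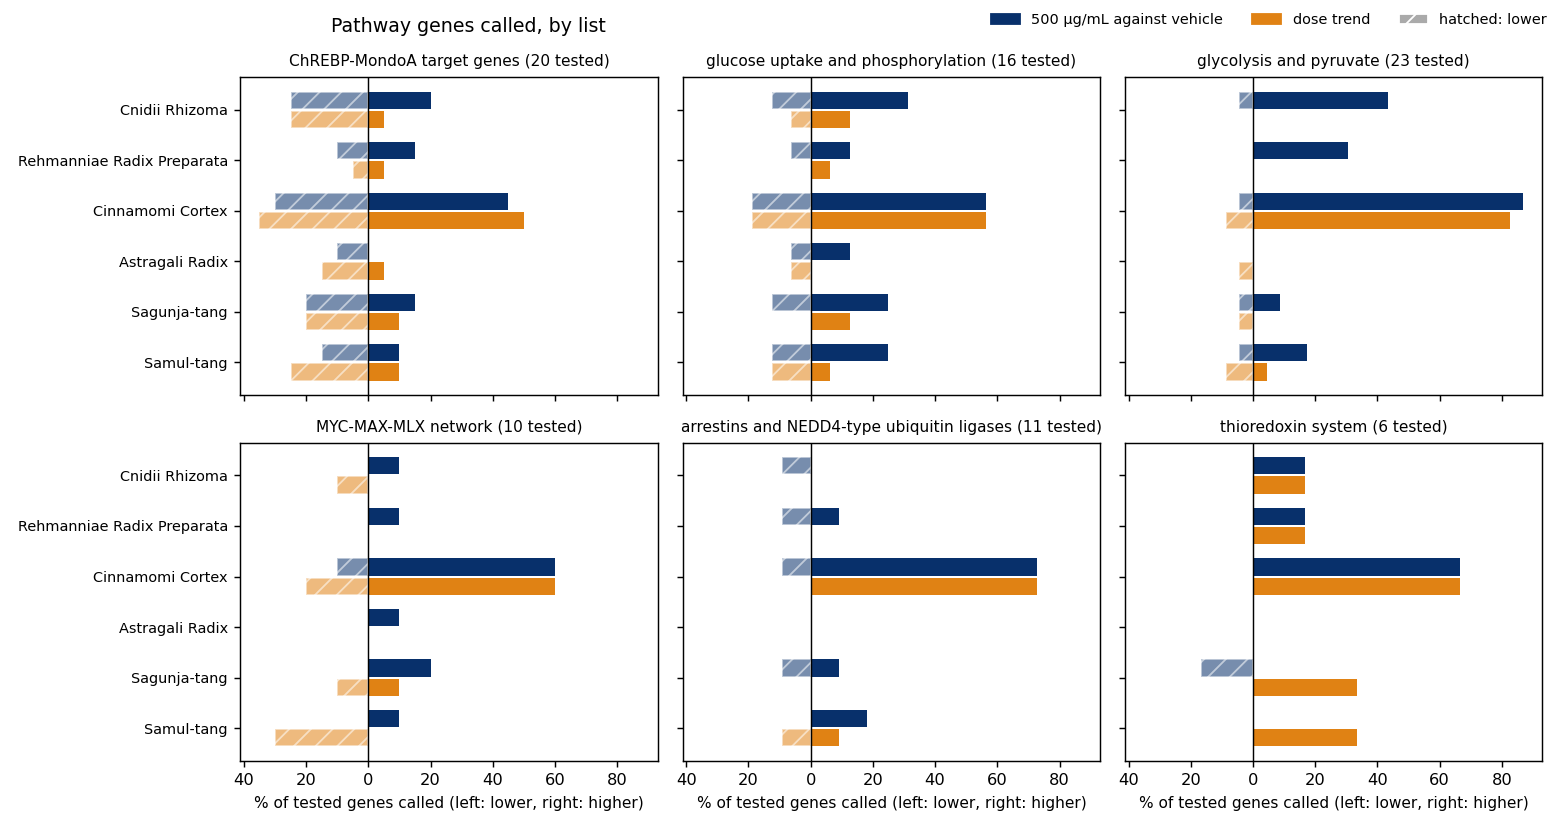
Percent of the tested genes of 6 lists that were called, for 6 extracts, with genes higher to the right and genes lower (hatched) to the left; blue bars are 500 µg/mL against vehicle and orange bars the dose trend. The bars of genes higher reach furthest with Cinnamomi Cortex in every list, up to 20 of 23 glycolysis genes higher. In that comparison 31.1% of all genes were called higher and 62.7% in either direction.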

How the data were processed

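Messenger RNA was sequenced from 60 libraries, per the labels with a directional kit and 100 bp paired reads from RNA with an integrity number above 7. The authors deposited expected counts for 60675 Ensembl genes, normalized for neither depth nor length; the unit was read from the values, 8.58% of which are not whole. The build GRCh38 and the tools RSEM 1.3.3, STAR 2.7.3a, Trim Galore 0.6.5 and FastQC 0.11.9 are named in the submitters' processing notes. The annotation release and the strand setting are not given in the sources used here. Columns of 210 other libraries were not used. Gene symbols were found for 57055 IDs, and positions are those of GENCODE 29.

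The rounded counts were fitted with edgeR 4.0.16 (limma 3.58.1, R 4.3.3): filterByExpr left 16167 genes, TMM factors were 0.833 to 1.05, and a single quasi-likelihood model took 57 libraries and 19 group means (common dispersion 0.00312, 38 residual degrees of freedom). A call is an adjusted p under 0.05 (Benjamini-Hochberg over all genes of a contrast) in the two-sided F test. There were 30 contrasts: 6 extracts at 3 doses against vehicle, 6 dose trends, and 3 pairs of extracts of a set at 500 µg/mL and in their trends. Palmul-tang, with 1 library per dose, was not tested. CPM values in the text are the rounded counts over TMM-scaled totals.

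The members, the 6 pathway lists and the tests were chosen with earlier results of these data known. Members' calls are counted beside those of all genes only to place them, and no test supports a statement about them. From each list up to 4 called genes per contrast were named by adjusted p, and all where 5 or fewer were called; a gene so named is followed in other extracts, and PKM and the genes shown beside them were added after their values were seen. Similar genes are the 5 with the highest Pearson r of log2 CPM (prior count 2) over group means, among genes with a mean of at least 2 CPM. Promoters are RefSeq's on GRCh38.p14, 250 bases before to 50 after a start.

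Data were simulated for Cinnamomi Cortex at 500 µg/mL against vehicle with 16167 genes, a small part of them changed, at random up or down. The fit recovered 20% of genes changed 1.2-fold, 74% at 1.5-fold, 68% at 2-fold and 88% at 3-fold. It made 8 false calls of 133 and 0 calls in an unchanged contrast. The real comparison had 10141 genes called, so the simulation cannot show how the scaling behaves there. It also held no difference between sets and no outlying library. The alternatives were total counts alone, RLE size factors, DESeq2 1.42.0 (Wald test), no filter on low counts, a fit of the compared groups alone, the replicate number as a block, the 6 groups at 20 µg/mL as comparator, the replicate 1 libraries of the Cinnamomi Cortex and Astragali Radix set left out together, and each library left out.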

Additional observations from a re-analysis of the deposited data

Results flagged for a closer look

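Dose trends of pathway genes were compared between the 2 extracts of a set by the difference of their linear contrasts, and differed in 2 of the 3 sets. In the set of Cnidii Rhizoma and Rehmanniae Radix Preparata, 1 of 86 genes differed (0.068% of all genes tested were called): ACLY, which supplies acetyl-CoA for fat synthesis, had a trend lower by a log2 difference of -0.12 ± 0.0221 per step with Cnidii Rhizoma (adjusted p = 0.00511, edgeR's quasi-likelihood test with Benjamini-Hochberg adjustment). In that set 10 of the 86 had an unadjusted p under 0.05 and DESeq2 called 2. The ACLY call was lost with total counts alone, with no filter on low counts and in a fit of the compared groups alone. In the set of Cinnamomi Cortex and Astragali Radix, 64 of 86 genes differed, 54 with the higher trend in Cinnamomi Cortex and 10 with the lower, or 34 and 19 with total counts alone, beside 50.9% of all genes called. For Sagunja-tang and Samul-tang 0 differed by edgeR (0.142% of all genes called), with 12 at an unadjusted p under 0.05 and 1 by DESeq2.

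The members were not used for this comparison, and their trends are given as values. Between Cinnamomi Cortex and Astragali Radix the trend of MLXIPL differed by -0.97 per step, that of PKLR by -0.30, that of ARRDC3 by 0.26 and that of TXNIP by 0.22. In the other 2 sets the differences in trend of the 7 members lay between -0.06 and 0.12 per step.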

How the results depend on the processing

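Of the log2 differences of the 7 members in 30 contrasts, 210 of 210 moved by less than the spread between replicates with RLE size factors, with DESeq2, with no filter on low counts, with the replicate block and in a fit of the compared groups alone, and 1626 of 1638 when single libraries were left out. The runs with no filter, with the replicate block and on the compared groups alone kept the TMM factors of the main fit. They had little room to move a log2 difference, so their agreement says little. With total counts alone 178 of 210 differences moved by less than the spread between replicates. In 26 the sign changed, 2 of them called: MLXIP in the dose trend of Cinnamomi Cortex (-0.002) and in Cinnamomi Cortex minus Astragali Radix at 500 µg/mL (-0.03). The others had a size of at most 0.22, among them ARRDC4 at 500 µg/mL of Cinnamomi Cortex (0.02 to -0.26). Against the 6 groups at 20 µg/mL, 31 of 84 changed sign, 2 of them called, TXNIP at 100 µg/mL of Sagunja-tang (0.01) and of Samul-tang (0.002). TXNIP also did with Astragali Radix at 500 µg/mL (-0.10 to 0.11) and 100 µg/mL (-0.15 to 0.06). Of named pathway genes, with total counts alone TXNL1, TXN2 and NEDD4L changed sign with Cinnamomi Cortex at 500 µg/mL (-0.07, -0.06 and -0.04), TXN2 in its dose trend (-0.03), TXNL1 and TXN2 against Astragali Radix at 500 µg/mL (-0.12 and -0.13) and TXNL1 against its dose trend (-0.02). Against the groups at 20 µg/mL, NEDD4L with Rehmanniae Radix Preparata (-0.01), SLC2A4 with Astragali Radix (0.08) and PFKFB3 with Samul-tang (-0.10) did, all at 500 µg/mL. The cause was not tested, except that total counts shift all genes alike.

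Counts of the 86 pathway genes moved as follows. In a fit of the compared groups alone, which has fewer libraries, 18 in place of 30 were called for Cnidii Rhizoma at 500 µg/mL, 2 in place of 4 in the trend of Rehmanniae Radix Preparata, 2 in place of 20 in that of Samul-tang, 1 in place of 3 for Cnidii Rhizoma minus Rehmanniae Radix Preparata at 500 µg/mL and 0 in place of 1 for their trends. With no filter, 11 in place of 6 were called for Astragali Radix at 500 µg/mL, 6 in place of 3 and 0 in place of 1 for Cnidii Rhizoma minus Rehmanniae Radix Preparata at 500 µg/mL and in trends, and 3 in place of 0 for the trends of Sagunja-tang and Samul-tang. With total counts alone, 1 in place of 4 was called in the trend of Rehmanniae Radix Preparata, and 0 in place of 1 for the trends of its set. Astragali Radix at 500 µg/mL had 10 without the replicate 1 libraries of its set and 17 against the groups at 20 µg/mL. DESeq2 called 1 in place of 0 for Sagunja-tang minus Samul-tang at 500 µg/mL and in trends, and 2 in place of 1 for the trends of Cnidii Rhizoma and Rehmanniae Radix Preparata.

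The counts of all genes called moved too. In a fit of the compared groups alone they were, at 500 µg/mL, 668 in place of 1904 (Cnidii Rhizoma), 199 of 492 (Astragali Radix), 902 of 1984 (Sagunja-tang) and 1345 of 2216 (Samul-tang), 111 of 3353 for Samul-tang at 20 µg/mL, 290 of 520, 86 of 187 and 68 of 1597 in the trends of Cnidii Rhizoma, Astragali Radix and Samul-tang, and 19 of 114 and 6 of 143 in the pairs of Cnidii Rhizoma and of the formulas.

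Leaving out single libraries gave, at 500 µg/mL against vehicle, 20 to 30 calls with Cnidii Rhizoma, 13 to 18 with Rehmanniae Radix Preparata, 65 to 67 with Cinnamomi Cortex, 14 to 20 with Sagunja-tang and with Samul-tang, and 3 to 8 with Astragali Radix (3 without vehicle replicate 3 or Astragali Radix replicate 2). In the dose trends it gave 8 to 13 with Cnidii Rhizoma, 2 to 4 with Rehmanniae Radix Preparata (2 without replicate 3 at 500 or at 20 µg/mL), 66 to 70 with Cinnamomi Cortex, 2 to 6 with Astragali Radix (3 without replicate 1 at 500 µg/mL, 2 without replicate 2 at 20 µg/mL), 11 to 14 with Sagunja-tang and 7 to 24 with Samul-tang (7 without replicate 2 at 20 µg/mL). In the pairs it gave 2 to 3, 63 to 67 and 0 to 1 (1 without Sagunja-tang replicate 2), and in their trends 1, 62 to 65 and 0 to 2 (1 or 2 without Samul-tang replicate 1 or 3 at 20 µg/mL or 2 at 500 µg/mL). The calls of named pathway genes ended in 135 of 1797 such fits.

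Groups share replicate numbers. Over all genes tested, in 0 of 45 pairs of groups within a set were all 3 correlations between samples of equal number over 0.1. Their median was 0.0284, and the -0.0142 for unequal numbers follows from centring each group on its mean. Single genes can still deviate together, as PFKFB3 did in the replicate 1 libraries of the Cinnamomi Cortex and Astragali Radix set. The replicate block gave 1 call in place of 0 for Sagunja-tang minus Samul-tang at 500 µg/mL and ended no call of a named pathway gene. ARRDC4, with a median of 114 reads, is limited by depth.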

Other observations

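Pathway genes at the lower doses of Cinnamomi Cortex are given here beside TXNIP, and a link between them was not tested. At 100 µg/mL, where TXNIP was above vehicle (65.4 ± 0.927 CPM, SD, n = 3) and MLXIPL below it (142.1 ± 6.8 CPM), 31 of 86 pathway genes were called higher and 9 lower, beside 19.4% of all genes called. Of the glycolysis and pyruvate genes 15 of 23 were higher and 0 lower at that dose, with a median log2 difference of 0.26. At 20 µg/mL, where TXNIP was below vehicle (52.1 ± 1.68 CPM) and MLXIPL just above it (199.9 ± 1.59 CPM), 9 of 86 were called higher and 6 lower, beside 7.16% of all genes. Of the glycolysis and pyruvate genes 1 of 23 was then higher and 0 lower, with a median of 0.08. TXNIP was also below vehicle at 500 µg/mL of the other replicated extracts. Calls of these 23 genes in either direction there were 11 with Cnidii Rhizoma, 7 with Rehmanniae Radix Preparata and 5 with Samul-tang. They were 3 with Sagunja-tang and 0 with Astragali Radix, beside the shares of all genes given above.

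In the dose trend of Samul-tang 7 of 86 pathway genes were called up and 13 down, the second highest count of the 6 dose trends, and 7 calls in all were left without replicate 2 at 20 µg/mL, the library in which MLXIPL stood at 274.9 CPM.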
